A study of Mus musculus with 6 samples.

Results

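The genes described here make, carry, sense and break down serotonin: the receptor genes Htr2c, Htr2a, Htr2b and Htr7, the synthesis genes Tph1 and Ddc, the transporter genes Slc6a4 and Slc18a2, and the monoamine oxidase genes Maoa and Maob. They were taken by symbol, 10 of the 21959 genes in the table, and each symbol matched 1 row. The cells were wild-type primary macrophages grown from mouse bone marrow. All were kept for 24 h in a mix of equal parts fresh medium and medium in which alveolar macrophages, which live in the air spaces of the lung, had been cultured for 48 h. The alveolar macrophages came from mice aged 8 to 12 weeks and were sorted by whether they carried the serotonin receptor HTR2C, so 3 libraries (N1 to N3) received medium from HTR2C-negative cells and 3 (P1 to P3) medium from HTR2C-positive cells. Both groups thus saw conditioned medium, and no library without it was analysed here. The labels number the samples without saying whether they were separate cultures, mice or batches of medium, so p-values reflect only the scatter of these samples, possibly a technical one.

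Serotonin is made from tryptophan in a pair of steps: tryptophan hydroxylase (TPH1 outside the brain), which needs the cofactor tetrahydrobiopterin, and then aromatic amino acid decarboxylase (DDC). The vesicular transporter VMAT2 (Slc18a2) packs serotonin, dopamine, noradrenaline and histamine into vesicles, the plasma membrane transporter SERT (Slc6a4) takes serotonin up from outside, and the monoamine oxidases on the outer mitochondrial membrane break it down with release of hydrogen peroxide. HTR2A, HTR2B and HTR2C couple to Gq and phospholipase C, and HTR7 raises cyclic AMP through Gs. In the body most serotonin is made in the gut and carried by platelets, and macrophages are known as cells that sense it. MAOA is also known as a gene that interleukin 4 induces in human monocytes.

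The 6 libraries held 12843971 to 16031723 counts. A count of 0 therefore allows up to 3 counts, or 0.187 to 0.234 CPM depending on the library. The macrophage markers Csf1r, Adgre1, Itgam, Cd68, Lyz2, Fcgr1, Mertk and Cd14 were all detected, with a summed level of 24266 to 26208 CPM in N1 to N3 and 22918 to 25719 CPM in P1 to P3, most of it Lyz2. Of these 8 markers Csf1r, the receptor for the macrophage growth factor, was higher without overlap (log2 fold change 0.63, SE 0.19, adjusted p = 0.141 by edgeR and 0.0408 by DESeq2), and it was at 0.32 after removal of trends with GC content and length. Fcgr1 was also higher without overlap (0.14, SE 0.14), and the other 6 overlapped. Summed markers of other cells overlapped between the groups, save those of T and B cells. Alveolar macrophage markers summed to 137 to 145 CPM in N1 to N3 and 132 to 151 CPM in P1 to P3. Those of fibroblasts and smooth muscle summed to 85.4 to 106 and 95.6 to 105 CPM. Epithelial and neuroendocrine markers summed to 0 to 0.275 and 0 to 0.171 CPM. All 7 tested neutrophil markers of 8 listed had higher values with HTR2C-positive medium (median log2 fold change 0.53), and Ly6g was at 0. Higher values were found for 5301 of the 10177 tested genes, whose median log2 fold change was 0.02. Of the 7 neutrophil markers, 2 were without overlap and at an unadjusted p under 0.05, S100a9 (0.36) and Camp (0.53). Over all tested genes, 10.9% were higher without overlap and 7.9% higher at that p. After removal of trends with GC content and length, S100a9 was at 0.42 and Camp at 0.24. The neutrophil markers summed to 812 to 1016 CPM in N1 to N3 and 983 to 1228 CPM in P1 to P3, with overlap. The 7 T and B cell markers summed to 0.403 to 1.58 CPM in N1 to N3 and 2.11 to 2.91 CPM in P1 to P3, without overlap. The part of such cells in the results below was not tested. Libraries N2 and P1, from different groups, were the most alike of all pairs (r = 0.980 over log2 CPM of the tested genes). The results are given below also without them. Leaving out a pair chosen in this way favours a difference between the groups, and 10.9% of genes were called without it. Over the whole table the edgeR test called 0 of 10177 genes (0%) at the adjusted threshold of 0.05, and 1690 (16.6%) at an unadjusted p under 0.05.

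Among the serotonin genes, Slc18a2 and Maoa were well expressed, and both had lower values with HTR2C-positive medium, about 0.56 and 0.58 of the level with HTR2C-negative medium. Their groups did not overlap, and neither difference passed the correction over all genes. The other 8 had a mean under 1 FPKM. Htr2c, the receptor by which the donor cells were separated, had no count in any of the 6 libraries of the receiving cells. Htr2a, Htr7, Tph1 and Maob had a few counts and stayed under the filter, and Htr2b, Slc6a4 and Ddc were tested with wide errors. Of the 10 genes 5 were thus tested.

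**Figure D1:**
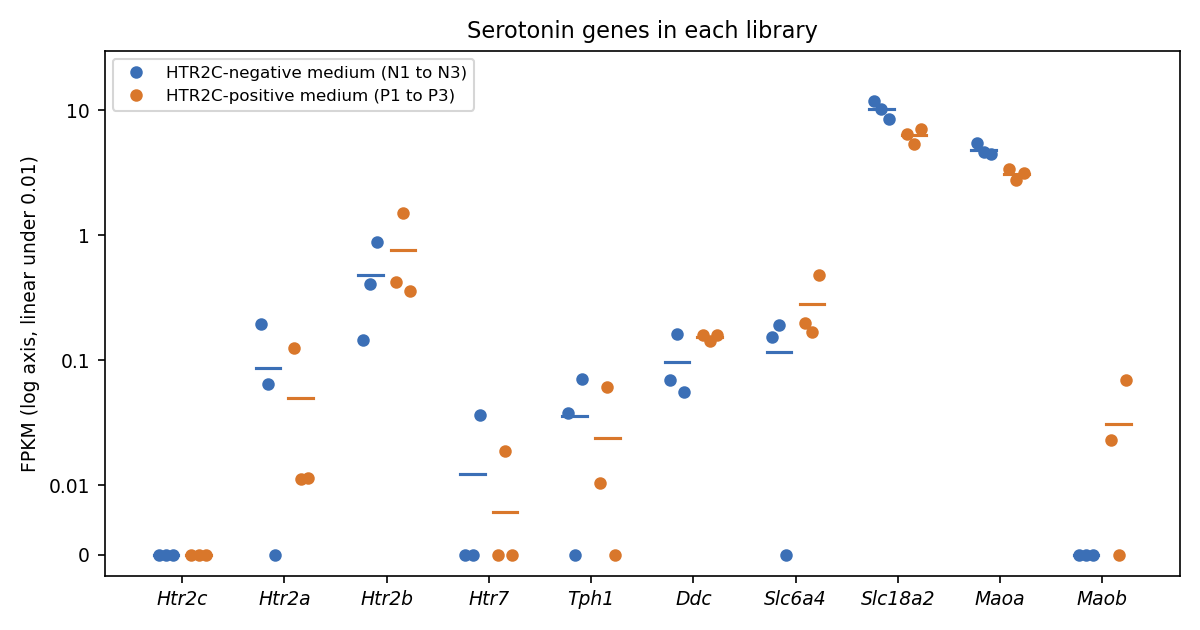
Deposited FPKM (per length, on a log axis that is linear under 0.01) of the 10 serotonin genes in each library, with short lines for the group means. Slc18a2 and Maoa stand above 2.7 FPKM in every library and Htr2c is at 0 in all 6.

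Slc18a2 (ENSMUSG00000025094, chromosome 19, 59249328 to 59284444, plus strand, GRCm39) was the most abundant of the 10 per length. Its mean of 8.28 FPKM was above that of 72.9% of all tested genes. The counts were 796 in N1, 735 in N2 and 716 in N3, against 526 in P1, 446 in P2 and 581 in P3. Scaled with TMM factors, N1 to N3 were at 70.3, 50.5 and 48.1 CPM and P1 to P3 at 29.99, 29.5 and 35.1 CPM. N1 was the highest library, and the lowest of the HTR2C-negative group stayed above the highest of the HTR2C-positive group. The group levels were 56.3 ± 12.2 and 31.5 ± 3.10 CPM (SD, n = 3). This is a log2 fold change of -0.83 (SE 0.18) with a Benjamini-Hochberg adjusted p of 0.0805 by edgeR's quasi-likelihood test, rank 58 of 10177 genes by p. Groups lower without overlap were found for 11.5% of all tested genes, and an unadjusted p under 0.05 with lower values for 8.71%, which is the background for Slc18a2 and for Maoa below.

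The call for Slc18a2 changed with the tool and with single libraries. DESeq2 gave an adjusted p of 0.00429, where 3.87% of all genes were called and 2.56% as lower. EdgeR without the count filter gave 0.00266, where 2.84% were called and 1.45% as lower. Without N2 and P1 together it gave 0.000997, where 10.9% were called and 6.42% as lower. Leaving out N2 alone gave 0.0412 (1.97% of genes called, 1.21% as lower) and leaving out P1 alone 0.0448 (1.8% called, 1.09% as lower). Leaving out N1 gave 0.564 with a log2 fold change of -0.65.

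Maoa (ENSMUSG00000025037, chromosome X, 16485937 to 16554057, plus strand) encodes the monoamine oxidase that prefers serotonin and noradrenaline. Its mean of 3.98 FPKM was above that of 60.4% of tested genes. The counts were 291 in N1, 265 in N2 and 300 in N3, against 222 in P1, 183 in P2 and 203 in P3. After scaling, N1 to N3 stood at 25.7, 18.2 and 20.2 CPM and P1 to P3 at 12.7, 12.1 and 12.3 CPM. In these scaled values the HTR2C-positive libraries lay close together, all under the lowest HTR2C-negative library, N2. On total counts they were less close, at 14.3, 11.6 and 13.1 CPM, and stayed under the lowest HTR2C-negative library, N3 at 18.7 CPM. The means were 21.4 ± 3.90 and 12.3 ± 0.286 CPM (SD, n = 3). The log2 fold change was -0.79 (SE 0.20) with an adjusted p of 0.0942 by edgeR, rank 154 by p. DESeq2 gave an adjusted p of 0.0163, edgeR without the count filter 0.0283, and edgeR without N2 and P1 together 0.00693. In an alternative, trends with GC content and gene length were removed in each library. The log2 fold change of Maoa (GC content 40.4%) was then -0.50 (adjusted p = 0.399 by edgeR). That of Slc18a2 (47.2%) was -0.80, with an adjusted p of 0.280 by edgeR, against 0.0805 before the removal.

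**Figure D2:**
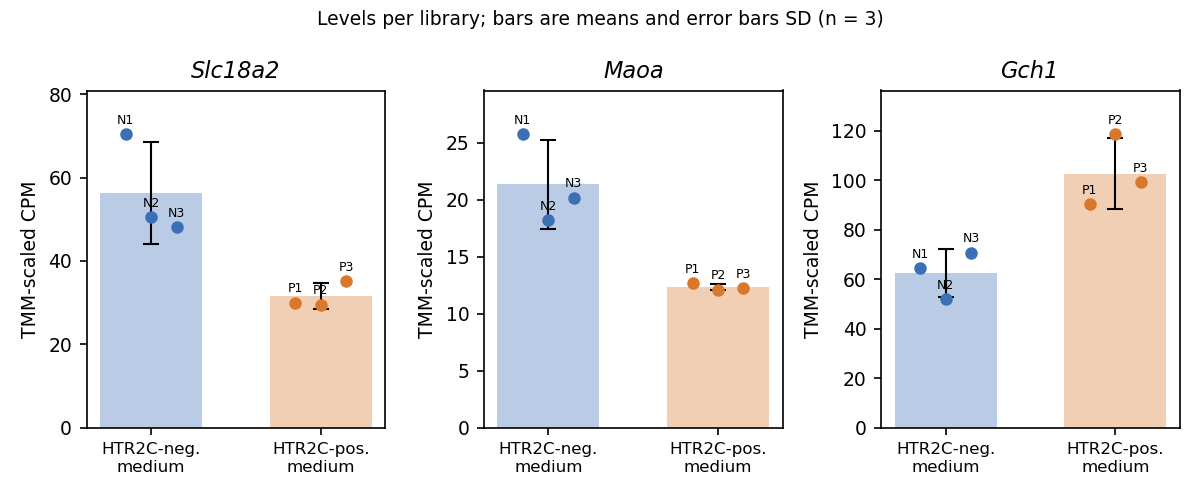
TMM-scaled CPM of Slc18a2, Maoa and Gch1 (a cofactor gene described further on) by library, with group means as bars from 0 and SD as error bars (n = 3). The libraries of the HTR2C-positive group lie under those of the HTR2C-negative group for Slc18a2 and Maoa and above them for Gch1, with no overlap.

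Slc18a2 and Maoa both had lower values with HTR2C-positive medium, by a similar factor. Within a library, the FPKM of Slc18a2 was 2.18, 2.21 and 1.90 times that of Maoa in N1, N2 and N3 and 1.89, 1.94 and 2.28 times in P1, P2 and P3. This ratio does not depend on the scaling of libraries, and its groups overlapped. Over the 6 libraries the log2 CPM of both genes had a Pearson r of 0.970. This r includes the difference between the groups and any shared effect of scaling. Within the groups, N1 was the highest library for both genes, but the order of the others differed. N3 was under N2 for Slc18a2 (48.1 and 50.5 CPM) and above it for Maoa (20.2 and 18.2 CPM). Scaled to total counts alone, the median log2 fold change of all tested genes moved from 0.02 to 0.16. With total counts, Slc18a2 was at -0.68 (adjusted p = 0.213 by edgeR) and Maoa at -0.64 (adjusted p = 0.228 by edgeR). Relative to the median of each scaling, Slc18a2 was at -0.86 with TMM factors and -0.84 with total counts, and Maoa at -0.81 and -0.80. Taking off the median removes a shift shared by all genes, so this likeness was largely fixed in advance.

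Because Slc18a2 and Maoa were the abundant ones of the 10 genes, the 250 bases before their start are shown. They are from RefSeq on GRCm38.p6, 5′ to 3′ on the gene's strand, with GC boxes (GGGCGG on either strand) in capitals. The Slc18a2 window is chr19:59260628-59260877 and the Maoa window chrX:16619448-16619697, both on the plus strand.
Slc18a2: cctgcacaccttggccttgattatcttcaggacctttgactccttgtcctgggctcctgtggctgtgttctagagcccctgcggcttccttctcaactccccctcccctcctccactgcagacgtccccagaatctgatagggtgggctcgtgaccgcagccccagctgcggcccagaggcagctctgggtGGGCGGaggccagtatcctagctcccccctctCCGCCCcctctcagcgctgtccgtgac
Maoa: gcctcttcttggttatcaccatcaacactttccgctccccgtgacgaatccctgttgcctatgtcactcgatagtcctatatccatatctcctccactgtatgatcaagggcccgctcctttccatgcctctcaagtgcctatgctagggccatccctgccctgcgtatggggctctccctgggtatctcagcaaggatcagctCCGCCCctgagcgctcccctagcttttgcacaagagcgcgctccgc
The Slc18a2 window held 2 GC boxes and the Maoa window 1. Of 32851 windows of the same length in the table, 32.7% held at least 1. CpG dinucleotides numbered 9 and 11, against a median of 6 over all windows. Neither window held TATAAA (12.4% of windows), CCAAT (33.8%), the cyclic AMP response element TGACGTCA (1.55%), the STAT pattern TTCNNNGAA (7.02%), its form with 1 more base in the gap (5.85%), or the core of the interferon-stimulated response element (2.98%), each searched on both strands. Windows were found for 9 of the 10 genes, all but Maob. GC boxes also stood in windows of scarce genes, 3 for Slc6a4, 1 for Htr2a and 2 in a Tph1 window. The other Tph1 window and those of Htr2c, Htr2b, Htr7 and Ddc held 0. CpG dinucleotides in the windows of these scarce genes ran from 1 in a Ddc window to 41 for Htr7. GC boxes were thus not particular to Slc18a2 and Maoa. Matches are of letters alone and show no binding.

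Maob (ENSMUSG00000040147, chromosome X, 16575521 to 16683605, minus strand), which encodes the oxidase that prefers phenylethylamine, lies next to Maoa on the X chromosome and points towards it. It had 0 counts in N1, N2, N3 and P2, 1 in P1 and 3 in P3. The HTR2C-positive sum of 4 counts (95% interval 1.09 to 10.2) compares with 0 in the HTR2C-negative group, where up to 3.69 are within the interval (exact permutation p = 0.4, two-sided). Of the 2 oxidase genes, the receiving macrophages thus held Maoa transcripts at 3.98 FPKM and Maob transcripts at 0.0154 FPKM on average.

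Slc6a4 (ENSMUSG00000020838, chromosome 11, 76889429 to 76923166, plus strand), the serotonin uptake transporter, was scarce. The counts were 9 in N1, 12 in N2 and 0 in N3, against 14 in P1, 12 in P2 and 34 in P3. N3 had none and P3 held more than any other library, while N2 and P2 held the same number. The scaled means were 0.540 ± 0.468 and 1.22 ± 0.726 CPM (SD, n = 3), and the groups overlapped. The log2 fold change was 1.19 (SE 0.89, adjusted p = 0.529 by edgeR), and it was 0.59 without N3 and 0.59 without P3, so these libraries carried much of it. Markers of platelets and megakaryocytes, cells that carry SERT, were mixed. Of 8 such markers 7 were detected and Gp1bb was at 0. The summed level, mostly Pf4, which macrophages also express, ran from 453 to 488 CPM in N1 to N3 and from 461 to 629.9 CPM in P1 to P3. The integrin gene Itga2b had 4, 7 and 6 counts in N1 to N3 and 31, 20 and 31 in P1 to P3 (log2 fold change 1.98, SE 0.59, adjusted p = 0.141). The more abundant Ppbp was lower without overlap in scaled CPM, with 129, 137 and 155 counts in N1 to N3 and 146, 122 and 122 in P1 to P3 (log2 fold change -0.39, SE 0.22, adjusted p = 0.387), and was at -0.08 after removal of trends with GC content and length. Pf4 and Itgb3 were at 0.22 and 0.44 with overlapping groups, and Gp9 and Gp1ba stayed under the filter. The part of such cells in the Slc6a4 counts was not tested. In bulk RNA, fewer cells of a type and less RNA per cell cannot be told apart.

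The same question touches Slc18a2, since mast cells and basophils store amines with VMAT2. Of 10 mast cell and basophil markers 6 were detected, and the protease genes Mcpt4, Tpsb2 and Cma1 and the receptor gene Mrgprb2 had no count. The summed level of all 10 ran from 11.6 to 15.3 CPM in N1 to N3. In P1 to P3 it ran from 9.07 to 12.0 CPM, and the groups overlapped. The carboxypeptidase gene Cpa3 had 78, 30 and 48 counts in N1 to N3 and 39, 22 and 35 in P1 to P3, with overlapping groups and a log2 difference of -1.05 (SE 0.45, adjusted p = 0.270). It was at -0.62 after removal of trends with GC content and length and had an adjusted p of 0.0436 without N2 and P1 together. The more abundant Mcpt8 was at -0.24 (SE 0.27) and Kit at 0.17 (SE 0.80), both with overlapping groups. Fcer1a, under the filter, had means of 0.329 and 0.451 CPM. The part of these cells in the Slc18a2 difference was not tested.

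Serotonin receptor transcripts were few. Of 14 serotonin receptor genes in the table, 4 of them among the 10 genes described here, 8 had no count in any library and 1, Htr2b, was tested. Htr2c (ENSMUSG00000041380, chromosome X, 145745509 to 145980273) belonged to the 8, with Htr1d, Htr1f, Htr3a, Htr3b, Htr4, Htr5a and Htr6. Over the 3 libraries of a group, 0 counts allow up to 0.0704 CPM in N1 to N3 together and 0.0641 CPM in P1 to P3 together.

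Htr2b (ENSMUSG00000026228, chromosome 1, 86026748 to 86039692, minus strand), the Gq-coupled receptor known from heart valves and myeloid cells, was the most abundant receptor of the family with a mean of 0.623 FPKM. The counts were 4 in N1, 12 in N2 and 30 in N3, against 14 in P1, 51 in P2 and 12 in P3. P2 was the highest library and N1 the lowest, and the groups overlapped. The means were 1.06 ± 0.857 and 1.63 ± 1.51 CPM (SD, n = 3), with a log2 difference of 0.58 (SE 0.74, adjusted p = 0.734 by edgeR) that became -0.50 without P2 and 1.44 without N3. Htr2b lies inside Psmd1, a proteasome subunit gene on the other strand that had 1407 to 1801 counts per library, and since the use of strand is not given, reads of Psmd1 introns cannot be told apart from Htr2b reads.

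Htr2a (ENSMUSG00000034997, chromosome 14, 74878280 to 74946934) had 14 counts in N1, 5 in N2 and 0 in N3, against 11 in P1, 1 in P2 and 1 in P3. N1 and P1 held most of them, and these were the only 2 libraries over the filter's 0.643 CPM of total counts, where 3 were needed. The sums were 19 (95% interval 11.4 to 29.7) and 13 (6.92 to 22.2), with an exact permutation p of 0.7. Htr7 (ENSMUSG00000024798, chromosome 19, 35936134 to 36034907), the Gs-coupled receptor, had 2 counts in N3, 1 in P2 and 0 elsewhere, too few to compare. Outside the 10 genes, Htr1b had the most counts, 2, 37 and 0 in N1 to N3 and 5, 21 and 4 in P1 to P3, nearly all in N2 and P2.

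The synthesis genes were scarce as well. Tph1 (ENSMUSG00000040046, chromosome 7, 46294065 to 46321961), the enzyme that commits tryptophan to serotonin, had 3 counts in N1, 0 in N2 and 7 in N3, against 1 in P1, 6 in P2 and 0 in P3. No library reached 0.643 CPM of total counts, and the sums of 10 (95% interval 4.80 to 18.4) and 7 (2.81 to 14.4) gave an exact permutation p of 0.8. Its brain counterpart Tph2 had no count. Ddc (ENSMUSG00000020182, chromosome 11, 11764101 to 11848144), which also makes dopamine, had 4 counts in N1, 10 in N2 and 4 in N3, against 11 in P1, 10 in P2 and 11 in P3. N2 was level with the HTR2C-positive libraries and the groups overlapped. Ddc passed the filter, which reads CPM of total counts, with just 3 libraries, 1 HTR2C-negative and 2 HTR2C-positive. Its means were 0.436 ± 0.221 and 0.651 ± 0.0207 CPM (SD, n = 3), with a log2 difference of 0.56 (SE 0.73, adjusted p = 0.740 by edgeR), and 1.06 without N2.

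Around the 10 genes, 112 further genes of 8 pathway lists were in the table, of which 46 were tested. At an unadjusted p under 0.05, 4 (8.70%) had higher and 2 (4.35%) lower values with HTR2C-positive medium, beside 7.9% and 8.71% of all tested genes, and 0 passed the adjusted threshold. The median log2 fold change was 0.14, beside 0.02 over all tested genes.

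Tetrahydrobiopterin, the cofactor of TPH1 and also of nitric oxide synthase, depends on Gch1, which encodes its rate-limiting enzyme GTP cyclohydrolase. Gch1 (ENSMUSG00000037580) had the smallest p of the pathway genes, with higher values in HTR2C-positive medium. N1 to N3 stood at 64.6, 51.9 and 70.8 CPM and P1 to P3 at 90.4, 119 and 99.3 CPM. Every HTR2C-positive library was above every HTR2C-negative one, as in 10.9% of all tested genes. The means were 62.4 ± 9.65 and 103 ± 14.4 CPM (SD, n = 3). For Gch1 edgeR put the log2 fold change at 0.72 (SE 0.17) with an adjusted p of 0.0859. Gch1 kept its direction in all 15 alternatives, with log2 fold changes from 0.60 to 0.86. It passed the threshold in 4 of them, with DESeq2 (adjusted p = 0.00951), without the count filter (0.00448), without P1 (0.0241) and without N2 and P1 together (0.000997). In the other 11 its adjusted p reached 0.564, among them 0.149 with total counts alone and 0.280 after removal of trends with GC content and length. The next enzymes of the path, Pts and Spr, had log2 fold changes of -0.43 (SE 0.20) and -0.77 (SE 0.43) with overlapping groups, and Pts was at -0.16 after removal of those trends. Pcbd2 and the recycling enzyme gene Qdpr were at 1.26 (SE 0.82) and 0.19 (SE 0.24). Of the 8 genes of this list 5 were tested, 1 was higher at an unadjusted p under 0.05 and 0 were lower.

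Downstream of the oxidases, aldehyde dehydrogenase clears the product of serotonin. Aldh2 was at 15.8 ± 4.64 and 23.4 ± 6.58 CPM (SD, n = 3; log2 fold change 0.56, SE 0.26, adjusted p = 0.298), with overlapping groups, and its log2 fold change was 0.24 after removal of trends with GC content and length. Akr1a1, an aldehyde reductase gene, was the most abundant of this list at 622 FPKM (log2 fold change -0.16, SE 0.17, and -0.04 after that removal). The melatonin genes Aanat and Asmt stayed under the filter. Of other monoamine transporter genes, 0 of 7 passed the filter, and Slc22a2, Slc22a3 and Slc29a4 had no count. Of the serotonin carriers, Slc18a2 was thus the abundant one, and its relative Slc18a1 had a mean of 0.0797 FPKM.

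Of the genes of tryptophan uptake and the kynurenine path, the main competing use of tryptophan, 17 were in the table, 10 were tested and 0 had an unadjusted p under 0.05 (median log2 fold change 0.18). Ido1, the interferon-induced enzyme that opens the path, was at 1.92 ± 0.581 and 0.982 ± 0.334 CPM (SD, n = 3). Its log2 fold change was -0.96 (SE 0.52, adjusted p = 0.373 by edgeR). Ido1 was lower without overlap in scaled CPM, narrowly, with N1 at 1.41 and P1 at 1.37 CPM. Ido2 was higher without overlap. Over all tested genes, 11.5% were lower and 10.9% higher without overlap. Wars, Slc7a8 and Ido2 were at 0.27, 0.23 and 0.27, and at 0.06, 0.02 and 0.21 after removal of trends with GC content and length. Slc3a2, the heavy chain of the tryptophan carrier, was the most abundant at 131 FPKM (log2 fold change 0.02, and -0.18 after that removal).

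Of 26 genes that couple or hold serotonin receptors, 15 were tested and 0 had an unadjusted p under 0.05, with a median log2 fold change of 0.25. Arrb2, an arrestin gene, was at 0.47 (SE 0.22), the G protein genes Gna11 and Gna13 at 0.81 (SE 0.39) and 0.25 (SE 0.14), and S100a10, which binds HTR1B, at 0.23 (SE 0.14) with 187 FPKM, the highest of the list. After removal of trends with GC content and length, Arrb2 was at 0.18 and Gna11 at 0.41. Among 7 genes known to regulate monoamine oxidase genes, 4 were tested. Stat6, which carries the interleukin 4 signal, was at 14.8 ± 5.34 and 23.9 ± 1.71 CPM (SD, n = 3; log2 fold change 0.69, SE 0.24, adjusted p = 0.188), higher without overlap, while Maoa was lower. Stat6 had an adjusted p of 0.0459 without N2 and 0.00195 without N2 and P1 together, and its log2 fold change was 0.46 after removal of trends with GC content and length. Foxo1 was at -1.04 (SE 0.45, adjusted p = 0.269) and Sp1, which binds GC boxes, at -0.13 (SE 0.17), with the sign turned to 0.04 by that removal and to 0.005 by total counts alone.

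**Figure D3:**
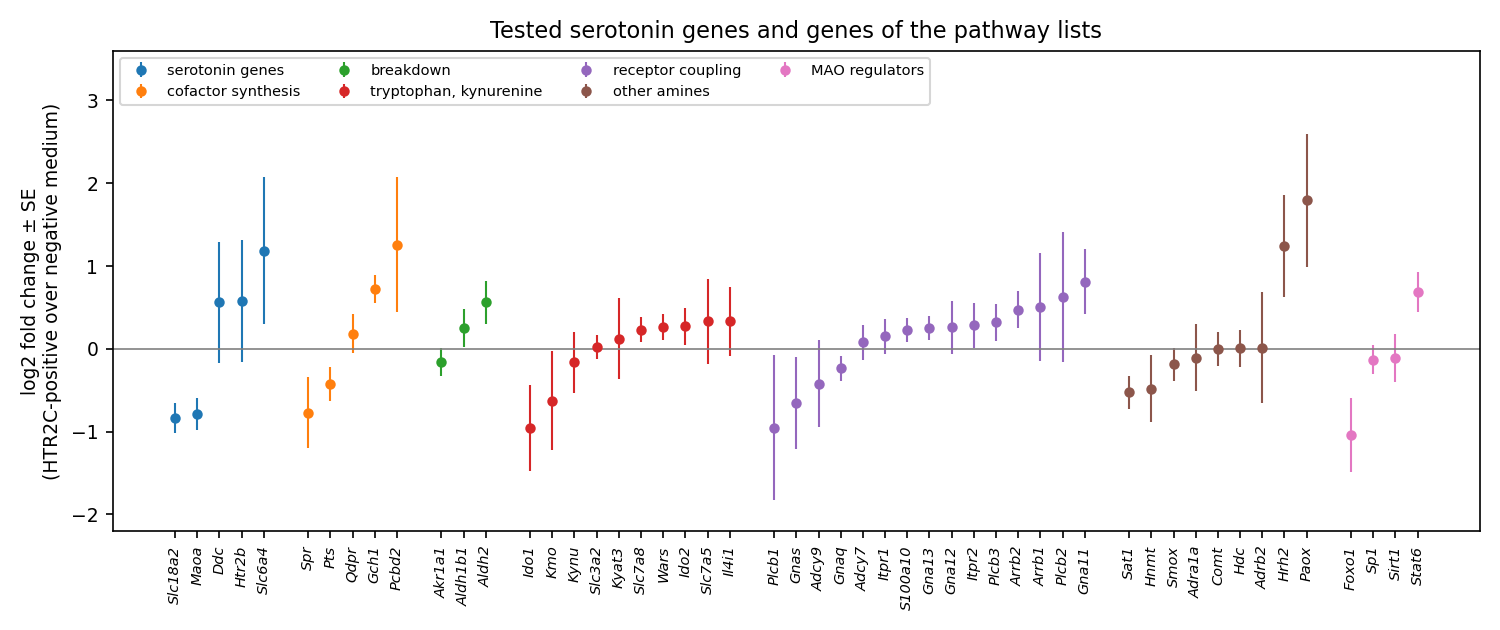
Log2 fold change with SE (HTR2C-positive over HTR2C-negative medium) of the 5 tested serotonin genes and the 46 tested genes of the pathway lists, coloured by list. Slc18a2 and Maoa lie near -0.8 with short error bars, and Slc6a4, Htr2b and Ddc lie above 0 with error bars several times as long.

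The genes whose log2 CPM followed the tested serotonin genes most closely over the 6 libraries were found among 9982 others, as a description. For Slc18a2 they were Krit1, Tlr8 and Nipsnap3b (r = 0.997, 0.993 and 0.992), and 122 genes had an r over 0.95. For Maoa they were Rab18, Ttc33 and Rc3h1 (r = 0.999, 0.998 and 0.998), with 203 genes over 0.95. The scarce genes had fewer such companions: 47 for Ddc, led by Saysd1, 19 for Slc6a4, led by Numa1, and 8 for Htr2b, led by Trak2. All these values of r rest on the same 6 libraries and their scaling, and they include the difference between the groups.

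**Figure D4:**
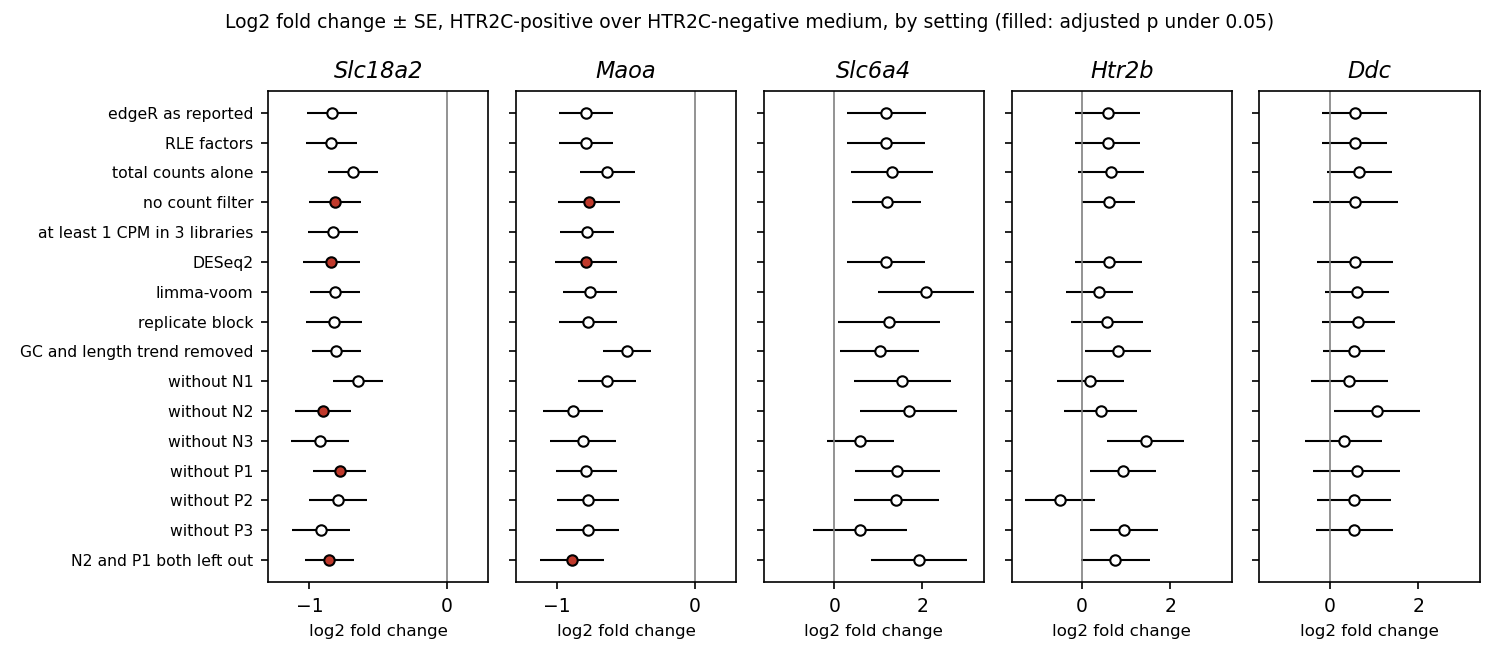
Log2 fold change with SE of the 5 tested serotonin genes under each setting, with filled points where the adjusted p was under 0.05 and gaps where the gene was not tested. Slc18a2 and Maoa stay under 0 in all 15 alternatives, with an adjusted p under 0.05 in 5 and 3 of them, and Htr2b crosses 0 without P2.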

How the data were processed

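RNA-seq libraries of cultured mouse macrophages were compared between conditioned media, 3 libraries per group. The authors deposited 1 table of 21959 Ensembl genes. Per the file headers it holds whole read counts per gene with no normalization, and FPKM values (counts scaled by gene length and library size). Dividing each count by the listed gene length and the library total returned the deposited FPKM, with a largest relative difference of 3.8e-07. Per the submitters' processing notes, the tools were fastp, HISAT2, StringTie and edgeR and the build was GRCm39; for versions, strand use, multimapped reads and the annotation release, the sources used here give nothing.

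Counts were analysed with edgeR 4.0.16 in R 4.3.3. Genes passing filterByExpr (here at least 0.643 CPM in 3 libraries) were kept (10177). TMM factors scaled the libraries, and the robust quasi-likelihood F test was fitted to all of them with group as its single term. P-values were adjusted with the Benjamini-Hochberg method over all 10177 genes, and those under 0.05 were called. Positive log2 fold changes mean higher values with HTR2C-positive medium. CPM values are TMM-scaled except where total counts are named. Intervals on summed counts are exact 95% Poisson intervals and cover counting error only, as does the floor of 3 counts. Genes under the filter were compared with exact permutation tests over libraries, which cannot go below p = 0.1 with 3 against 3.

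The 10 serotonin genes and the gene lists around them were chosen with earlier results of these data known. All 10 are named. Of each other pathway list, up to 4 tested genes with the smallest p and the most abundant by FPKM may be named; genes outside that rule were chosen after their values were seen. For each of the 10 that was tested, the 3 genes with the highest Pearson correlation of log2 CPM over the 6 libraries are named. Alternatives were DESeq2 1.42.0, voom from limma 3.58.1, scaling by RLE factors or by total counts, dropping the count filter or asking for 1 CPM in 3 libraries, a block for the replicate number, each library left out, libraries N2 and P1 left out together, and a correction of each library for gene length and for GC content of the transcripts in GENCODE M21. The edgeR script was tested on simulated counts. Promoter sequences are RefSeq's on build GRCm38.p6, and gene coordinates are the table's on GRCm39.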

Additional observations from a re-analysis of the deposited data

How the results depend on the processing

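Slc18a2 and Maoa kept their direction in all 15 alternatives, with log2 fold changes from -0.92 to -0.65 and from -0.89 to -0.50. Their adjusted p-values ranged from 0.000997 to 0.564 and from 0.00693 to 0.573. They passed the threshold without the count filter (-0.82 and -0.77), with DESeq2 (-0.84 and -0.79) and without N2 and P1 together (-0.85 and -0.89). With single libraries left out, Slc18a2 ranged from -0.92 to -0.65, Maoa from -0.89 to -0.64, Slc6a4 from 0.59 to 1.69, Ddc from 0.31 to 1.06 and Htr2b from -0.50 to 1.44, and the sign of Htr2b turned without P2. Gch1 ranged from 0.60 to 0.84 in the same way. Slc6a4 was at 2.08 with limma-voom and 1.93 without N2 and P1 together. DESeq2 gave these scarce genes, Htr2b, Slc6a4 and Ddc, no adjusted p, and under a filter of 1 CPM in 3 libraries they were not tested; Ddc was not tested without N2 and P1 either.

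The number of genes called over the whole table was 0 as reported, 422 without the count filter and 394 with DESeq2. It was 0 to 206 with single libraries left out and 1107 without N2 and P1 together. That pair was chosen for being alike across the groups, so leaving it out favours more calls. The cause of the other changes was not tested. Pathway genes with higher values at an unadjusted p under 0.05 numbered 4, and 6 with total counts alone, without the count filter and without N2 and P1 together, 2 with limma-voom, 2 with the replicate block and 1 to 5 with single libraries left out. Those with lower values numbered 2, and 1 with total counts alone, 1 with limma-voom, 0 with the replicate block, 5 without N2 and P1 and 0 to 4 with single libraries left out.

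The deviations of libraries with the same number had correlations of -0.15, -0.23 and 0.05. Those of libraries with different numbers ran from -0.16 to 0.31. With 3 libraries per group, these values cannot tell whether the numbers pair the samples. With the replicate block, Slc18a2 was at -0.82 and Maoa at -0.78 (adjusted p = 0.358 for both), and 0 genes were called. For Htr2a, Htr7, Tph1 and Maob, 3 libraries against 3 allow no permutation p under 0.1 at any depth, and their counts leave wide intervals.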

Other observations

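Genes of other amines include those of histamine and the polyamines. Hdc, the histamine-making enzyme gene, stood at 52.3 ± 8.60 CPM in N1 to N3 and 52.6 ± 18.3 CPM in P1 to P3 (SD, n = 3), with a log2 difference of 0.01 (SE 0.22, adjusted p = 0.989). Per length its mean of 8.32 FPKM was next to the 8.28 FPKM of Slc18a2, whose product also carries histamine. The histamine receptor gene Hrh2 and the methyltransferase gene Hnmt were at 1.24 (SE 0.61) and -0.48 (SE 0.41), both with overlapping groups. Hrh2 had 5 to 59 counts per library. Without N2 and P1 together Hrh2 was at 0.59 and Hnmt at -1.23. After removal of trends with GC content and length they were at 1.17 and -0.03. Sat1, the polyamine acetyltransferase gene, was the most abundant of these at 745 FPKM and had a log2 difference of -0.52 (SE 0.20, adjusted p = 0.224) with overlapping groups, and -0.25 after the same removal. Without N2 and P1 together Sat1 was at -0.64 with an adjusted p of 0.000795. The polyamine oxidase gene Paox had 1, 3 and 5 counts in N1 to N3 and 16, 12 and 10 in P1 to P3 (log2 difference 1.79, SE 0.80, adjusted p = 0.286). All 5 dopamine receptor genes had no count, and of 31 genes of this list 9 were tested, 1 with higher and 1 with lower values at an unadjusted p under 0.05.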
